A study of Mus musculus with 2 samples.

Results

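Vγ4-led barcodes are the cell barcodes in which Tcrg-V4 (ENSMUSG00000076745), the V gene segment of the Vγ4 T cell receptor chain, had more UMIs than any other γ V segment. A UMI is a unique molecular identifier, counted once per captured RNA molecule. Among all 1398 barcodes of both libraries, 850 held at least 1 UMI of Tcrg-V1, -V3, -V4, -V5, -V6, -V7 or Trgv2, 129 of these were ties and were left out, and Tcrg-V4 led in 112 of the remaining 721. The members were thus chosen by their γ V counts, and the Tcrg-V4 counts below describe that choice and support nothing. Of the members, 89 came from the TMREhi library and 23 from the TMRElo library. The cells were from fetal thymic lobes of wild-type C57BL/6 mice at embryonic day 15, kept in culture for 2 days with no treatment. TMRE reports mitochondrial membrane potential by its fluorescence, and the CD24+ γδ T cells were sorted as TMREhi or TMRElo by it. The labels name 1 library per sort and do not say how many animals it pooled, so no test between the sorts, and no test over samples, was possible. All intervals below are 95% intervals for counting error only.

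γδ T cells rearrange their γ genes in waves during fetal life, and the V segment a cell uses is linked to where it settles and what it makes. Cells with Vγ4 leave the thymus for lymphoid tissue and skin, and a share of them is programmed in the thymus to make IL-17, a path that requires the transcription factors Sox13, Sox4 and c-Maf and the kinase Blk. Cells with Vγ6 are an earlier IL-17-producing wave, and cells with Vγ1 segments include many that make interferon-γ or are pushed towards cytotoxic fates.

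The sequences that decide membership are given here because the choice rests on telling homologous segments apart. Each is up to 300 bases of the V exon from the GENCODE vM21 transcripts (GRCm38), printed 5′ to 3′ on the sense strand, with the longest run of bases shared with any other segment of its chain in capitals. They are parts of coding exons, Tcrg-V4 at chr13:19185200-19185499 (plus strand), Tcrg-V6 at chr13:19190612-19190911 (plus), Trgv2 at chr13:19336580-19336879 (minus), and Trdv2-2, a δ segment, at chr14:53961304-53961602 (plus).
Tcrg-V4: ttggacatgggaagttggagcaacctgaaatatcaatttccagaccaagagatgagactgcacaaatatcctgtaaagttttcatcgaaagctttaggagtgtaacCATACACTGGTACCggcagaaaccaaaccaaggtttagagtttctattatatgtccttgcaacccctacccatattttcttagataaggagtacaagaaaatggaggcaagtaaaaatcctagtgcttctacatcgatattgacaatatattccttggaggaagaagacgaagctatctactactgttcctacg
Tcrg-V6: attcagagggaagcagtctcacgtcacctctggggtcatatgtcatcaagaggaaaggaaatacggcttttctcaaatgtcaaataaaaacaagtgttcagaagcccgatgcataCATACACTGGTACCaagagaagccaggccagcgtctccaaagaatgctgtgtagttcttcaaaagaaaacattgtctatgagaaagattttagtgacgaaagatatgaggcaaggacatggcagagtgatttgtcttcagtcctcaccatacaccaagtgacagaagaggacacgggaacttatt
Trgv2: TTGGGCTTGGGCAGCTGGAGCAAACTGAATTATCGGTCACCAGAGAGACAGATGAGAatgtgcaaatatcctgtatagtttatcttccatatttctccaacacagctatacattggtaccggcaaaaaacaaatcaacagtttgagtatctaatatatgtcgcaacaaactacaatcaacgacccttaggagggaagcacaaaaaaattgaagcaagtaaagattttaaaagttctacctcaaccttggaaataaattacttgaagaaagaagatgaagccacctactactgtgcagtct
Trdv2-2: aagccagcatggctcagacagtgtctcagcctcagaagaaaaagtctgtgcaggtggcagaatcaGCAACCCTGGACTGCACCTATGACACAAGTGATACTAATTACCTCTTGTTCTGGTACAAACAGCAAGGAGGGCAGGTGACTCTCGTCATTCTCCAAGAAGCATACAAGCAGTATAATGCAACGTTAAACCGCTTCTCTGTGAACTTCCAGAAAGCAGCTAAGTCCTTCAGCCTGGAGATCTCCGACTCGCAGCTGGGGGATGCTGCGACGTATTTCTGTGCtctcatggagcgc
Tcrg-V4 shared at most 14 bases in a row with any other γ segment, that run being with Tcrg-V6, and its identity over the aligned exons was 53.9% with Tcrg-V6, 68.2% with Trgv2 and 70.9% with Tcrg-V3. Trgv2 and Tcrg-V1 were 95.1% identical and Tcrg-V1 and Tcrg-V3 shared 104 bases in a row, so UMIs may have been split among these 3 and they are treated as the Vγ1 family here. Trdv2-2 was 97.7% identical to Trdv2-1 with a shared run of 221 bases, and its counts are uncertain to that extent.

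Tcrg-V4 gave 304 UMIs, 65.8% of all γ V UMIs, in the TMREhi members and 50 UMIs, 82.0%, in the TMRElo members. The leading count ran from 1 to 18 UMIs (median 3) in TMREhi and from 1 to 6 (median 2) in TMRElo. In TMREhi 21 members rested on 1 UMI, and 31 led a second detected segment by a margin of 1 UMI. Just outside the rule, 48 TMREhi and 12 TMRElo barcodes tied Tcrg-V4 with another segment, with 1 to 5 and 1 to 3 UMIs. The companion segment was nearly always of the Vγ1 family: Trgv2 had 118 UMIs in 47 of 89 TMREhi members, Tcrg-V1 had 32 UMIs in 21, and Tcrg-V3 had 7 UMIs in 3, while Tcrg-V6 had 1 UMI and Tcrg-V5 and Tcrg-V7 none. Trgv2 UMIs were also found in 33 of 105 Tcrg-V6-led (31.4%, 22.7 to 41.2%) and 11 of 40 Tcrg-V5-led TMREhi barcodes (27.5%, 14.6 to 43.9%). Trgv2 was thus a common companion and not particular to the members, where its share was 52.8% (41.9 to 63.5%). Tcrg-V4 as a companion of other segments was less even. In TMREhi, Tcrg-V4 UMIs were found in 136 of 324 Trgv2-led barcodes (42.0%, exact binomial interval 36.5 to 47.6%, median depth 3419.5 UMIs), but in 2 of 105 Tcrg-V6-led barcodes (1.91%, 0.231 to 6.71%, median depth 1673). Among barcodes with at least 2 Rag1 UMIs and no other γ V UMI, 5 of 173 held Tcrg-V4 (2.89%, 0.945 to 6.62%, median depth 797). Whether those UMIs came from free RNA or from the cells themselves was not tested. The share in Vγ6-led barcodes lay within that range, and the share in the deeper Trgv2-led barcodes lay above it. These shares were not thinned to a like depth, and the part played by depth was not tested.

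Vγ4-led barcodes were 14.4% of the 619 TMREhi γ V-led barcodes (89, interval 11.7 to 17.4%) and 22.5% of the 102 in TMRElo (23, interval 14.9 to 31.9%). The intervals overlap, and the TMRElo library had no Vγ6-led barcode and 1 Vγ5-led barcode against 105 and 40 in TMREhi, and these enter the same denominators.

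**Figure D1:**
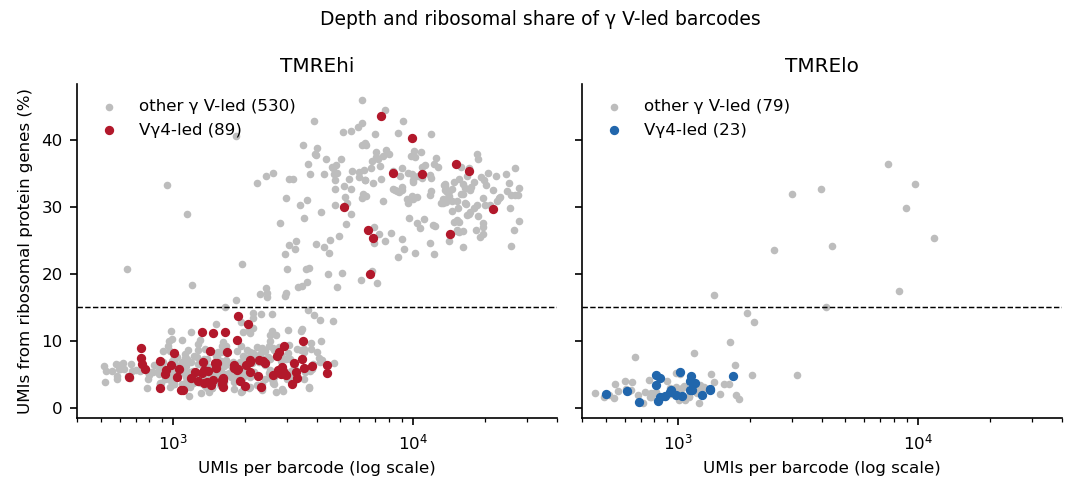
Each point is a γ V-led barcode, by its UMIs (log scale) and the percent of UMIs from ribosomal protein genes, in TMREhi (left) and TMRElo (right). Coloured points are Vγ4-led and grey points are led by another segment; 77 of 89 TMREhi and 23 of 23 TMRElo Vγ4-led barcodes lie under the dashed line at 15%.

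Barcodes of both libraries fell into a shallow, low-ribosomal class and a deep, high-ribosomal class, and Vγ4-led barcodes, like Vγ5-led ones, were mostly of the first kind. Taking under 15% of UMIs from ribosomal protein genes as low, 77 of 89 TMREhi members were low-ribosomal (86.5%, 77.6 to 92.8%) against 297 of 530 other γ V-led barcodes (56.0%, 51.7 to 60.3%). The share was 52.4% in the Vγ1 family-led (47.2 to 57.5%), 60% in the Vγ6-led (49.98 to 69.4%) and 80% in the 40 Vγ5-led barcodes (64.35 to 90.95%), the last overlapping the members. All 23 TMRElo members were low-ribosomal, as were 68 of 79 other TMRElo barcodes (86.1%). No member lay near the line: the highest low-ribosomal value in TMREhi was 13.7% and the lowest high-ribosomal value 20.1%. Low-ribosomal TMREhi members had a median of 1681 UMIs with 17.7% mitochondrial UMIs, high-ribosomal members 9110 UMIs with 4.42%, and TMRElo members 979 UMIs with 13.7%. Only 13 TMREhi and 4 TMRElo members would pass a filter of at least 500 genes and at most 10% mitochondrial UMIs, and are called retained. Of the 13, 11 were high-ribosomal. In the low-ribosomal class of TMREhi, 2 of the 77 members and 4 of the 297 others would pass. Because the class mix moves with the segment, the comparisons below are given inside the low-ribosomal class unless another set is named (77 Vγ4-led barcodes with 149652 UMIs, 297 others with 546824). Levels are UMIs summed over barcodes and scaled to the group's UMI total (CPM), and a ratio is given with its exact Poisson interval. "Higher" and "lower" are used for single genes where that interval excludes 1.

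Most markers of other cell types were low or absent among the members. Every erythroid marker listed was at 0 in both libraries. Lyz2, Csf1r, C1qa, Itgam and Adgre1 were at 0, with Cd68 as the single myeloid UMI, whereas 7 of 297 other low-ribosomal TMREhi barcodes held 87 myeloid UMIs, 77 of them in 1 barcode. Of the epithelial list Krt5, Krt8, Foxn1 and Psmb11 were at 0 and Epcam had 3 UMIs in 3 TMREhi members. Of the B cell list Cd79a and Ms4a1 were at 0, while Cd79b had 10 UMIs in 8 of 89 TMREhi members, at 35.75 CPM against 21.1 CPM in the others. Markers of αβ lineage thymocytes (Rag1, Rag2, Cd4, Cd8a, Cd8b1, Ptcra and Dntt) were all detected, with 98 UMIs in 35 of 89 TMREhi members (350 CPM, against 229.5 CPM in the other γ V-led barcodes) and 2 UMIs in the TMRElo members. Within the low-ribosomal class the sums were 481 and 353 CPM. Rag1, which cuts DNA for receptor rearrangement, was seen in 10 of 89 TMREhi members and in 0 of 23 TMRElo members. Trdc, the δ constant region, was at 336 CPM in all TMREhi members and 395.5 CPM in other γ V-led barcodes (ratio interval 0.681 to 1.05). Of the γ constant regions, Tcrg-C1 stood at 450 against 542.5 CPM, Tcrg-C2 at 300 against 299 CPM and Tcrg-C4 at 214.5 against 225 CPM over all TMREhi barcodes.

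The δ partner of Tcrg-V4 was most often Trdv2-2. Among the 60 TMREhi members with a single leading δ segment, Trdv2-2 led 25 (41.7%, 29.1 to 55.1%), a segment shared with the TCRα locus (named Trav-dv) led 17 (28.3%, 17.4 to 41.4%), Trdv5 led 13 (21.7%, 12.1 to 34.2%), Trdv4 led 4 (6.67%, 1.85 to 16.2%) and Trdv1 led 1. No δ V UMI was found in 26 of 89 TMREhi and 12 of 23 TMRElo members. In TMRElo, Trdv2-2 led 5 of the 10 members with a δ lead (50%, 18.7 to 81.3%), Trdv5 led 2 and Trdv4 none. The Vγ1 family-led barcodes of TMREhi had a like make-up, with Trdv2-2 in 97 of 252 (38.5%, 32.4 to 44.8%) and Trdv4 in 29 (11.5%, 7.84 to 16.1%). Vγ6-led barcodes were set apart by Trdv4 in 91 of 97 (93.8%, 87.0 to 97.7%) and Trdv2-2 in 3. The interval of the Vγ4-led Trdv2-2 share thus overlapped that of the Vγ1 family and lay wholly above that of the Vγ6-led barcodes (0.642 to 8.77%).

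**Figure D2:**
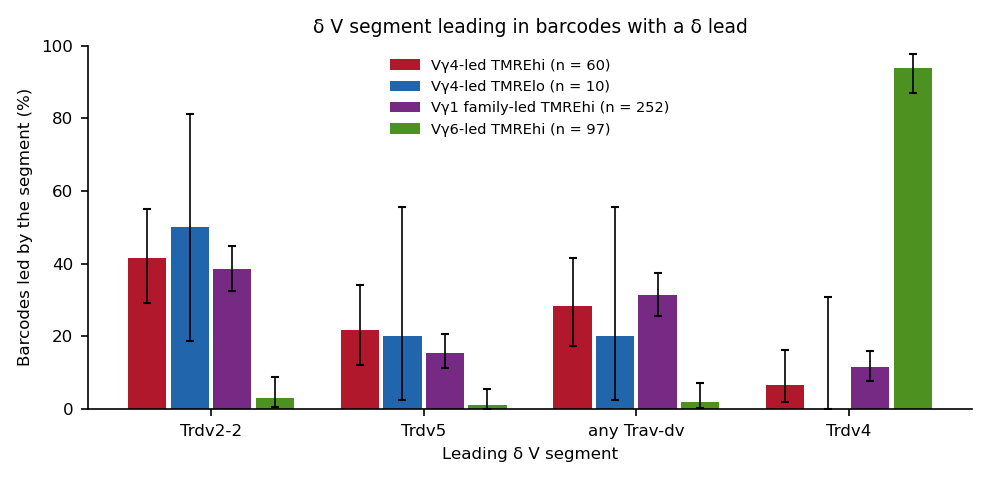
Bars give the percent of barcodes led by each δ V segment among barcodes with a single leading δ segment, in 4 groups; whiskers are exact 95% binomial intervals. Vγ4-led and Vγ1 family-led bars overlap for Trdv2-2 (41.7% and 38.5%), while Trdv4 leads 93.8% of the Vγ6-led barcodes.

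Across genes, the Vγ4-led barcodes of TMREhi carried more RNA of several factors that set up the IL-17 path and, against the pooled other barcodes, less of the cytokine receptors and surface molecules that follow it. Of 7146 genes averaging 20 CPM or more over both groups, 375 (5.25%) were at least 2-fold higher and 500 (7.0%) at least 2-fold lower in Vγ4-led than in other γ V-led low-ribosomal barcodes, with a median log2 ratio of 0.04. Over all barcodes the split was 771 higher (12.2%) and 195 lower (3.08%) of 6322 genes, with a median of 0.25, so the split moves with the class mix. In the high-ribosomal class, with 12 members, 318 were higher (6.15%) and 418 lower (8.08%) of 5171. Against single segment groups in the low-ribosomal class, 2280 of 7029 genes (32.4%) passed 2-fold against the 63 Vγ6-led barcodes, 1255 higher (17.9%) and 1025 lower (14.6%). Against the Vγ1 family-led barcodes 915 of 7132 did (12.8%), 446 higher (6.25%) and 469 lower (6.58%). With both classes pooled, 1153 of 6417 genes were 2-fold higher and 548 (8.54%) 2-fold lower than in Vγ6-led barcodes.

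Sox13, the HMG-box factor needed for Vγ4 IL-17 cells, had 40 UMIs in 26 of 77 Vγ4-led barcodes (267 CPM) and 79 UMIs in 45 of 297 others (144.5 CPM). It was higher by 1.23- to 2.74-fold (log2 0.88). The Vγ1 family-led barcodes stood at 143 CPM and the Vγ6-led ones at 142 CPM, and the interval reached 1 only against the latter (0.987 to 3.84). Its log2 ratio in TMREhi lay between 0.88 and 1.77 under every alternative tried. No single barcode gave more than 10.0% of its UMIs. In TMRElo it had 1 UMI in the members and 1 in the other low-ribosomal barcodes, which gives no usable ratio.

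Sox4, a second HMG-box factor of that path, stood at 568 CPM (85 UMIs) against 269 CPM (147 UMIs), higher by 1.60- to 2.78-fold. It was far lower in Vγ6-led barcodes (54.6 CPM, 5 UMIs) and at 352 CPM in the Vγ1 family. Sox5, a partner of Sox13 of the same gene family, had 127 against 56.7 CPM (ratio interval 1.20 to 4.09). Etv5, an ETS factor linked to IL-17-committed γδ cells, showed the largest ratio of the lineage factors, 227 CPM (34 UMIs) against 62.2 CPM (34 UMIs), or 2.20- to 6.06-fold higher. It was also higher than in the Vγ1 family (77.9 CPM, 1.74 to 4.91) and the Vγ6-led barcodes (32.8 CPM, 3 UMIs, 2.18 to 35.3).

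Of the markers named for this group, Sox13 was thus higher in the members, while Trdv2-2 was shared with the Vγ1 family and Maf did not separate. The other members of the list gave mixed values. Maf, which encodes c-Maf, had 46 UMIs (307 CPM) against 185 (338 CPM); it was lower than in Vγ6-led barcodes (830 CPM, ratio interval 0.251 to 0.541) and at 256 CPM in the Vγ1 family (0.828 to 1.72). Blk, a Src-family kinase of IL-17-producing γδ cells, stood at 194 against 132 CPM (0.922 to 2.29), above the Vγ1 family (108 CPM, 1.08 to 2.94) and at 306 CPM in the Vγ6-led barcodes. Zbtb16, which encodes PLZF, had 6 UMIs (40.1 CPM) against 40 (73.2 CPM). Of the 9 lineage factors, 5 had a positive and 4 a negative log2 ratio, 3 were 2-fold higher and 1 was 2-fold lower, and the median was 0.55. Against the Vγ6-led barcodes the median was −0.65 and against the Vγ1 family 0.69.

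The cytokines, receptors and homing molecules of the IL-17 programme went the other way against the pooled others. Of 15 measured members of 19, 14 had a lower level in Vγ4-led barcodes, 9 by at least 2-fold, with a median log2 of −1.14. Summed over the whole list, the members stood at 3648.5 CPM and the others at 4875 CPM. The size and the direction depended on the comparison group. Against Vγ6-led barcodes (12826 CPM) 16 of 17 were at least 2-fold lower (median −3.16). Against the Vγ1 family (3216.5 CPM) 6 of 15 were higher and 9 lower, with a median of −0.03, and with both classes pooled 10 of 12 were higher, with a median of 0.68. Il23r, the receptor for the cytokine that sustains IL-17 cells, had 7 UMIs (46.8 CPM) against 94 (172 CPM), and was at 786 CPM in Vγ6-led and 47.8 CPM in Vγ1 family-led barcodes. Il1r1, the interleukin-1 receptor, had 4 UMIs (26.7 CPM), against 349 CPM in Vγ6-led and 20.1 CPM in Vγ1 family-led barcodes. Cd44, an adhesion receptor of effector cells, had 1 UMI (6.68 CPM) against 44 (80.5 CPM), lower with an interval of 0.00206 to 0.488. Il17a was at 0 in all 112 members, with 13 UMIs (23.8 CPM) in other low-ribosomal TMREhi barcodes. In the 77 members 3 UMIs, taken as the floor, are worth 20.05 CPM, close to that level. No difference is therefore read from Il17a. Il7r, the interleukin-7 receptor, stood at 535 against 775 CPM (0.536 to 0.877), and at 1856 CPM in Vγ6-led barcodes.

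In TMREhi a pair of related scavenger receptors separated Vγ4-led from Vγ6-led barcodes, in opposite directions. 5830411N06Rik, which encodes SCART2, had 232 UMIs in 48 of 77 Vγ4-led barcodes (1550 CPM) against 389 UMIs in 81 of 297 others (711 CPM), higher by 1.84- to 2.57-fold, and was the 1 member of the cytokine, receptor and homing list above the others. It was higher than in the Vγ1 family (925 CPM, 1.42 to 1.98) and than in Vγ6-led barcodes (142 CPM, 6.26 to 20.8). Cd163l1, which encodes SCART1, had 72 UMIs in 14 of 77 (481 CPM) against 619 UMIs in 112 of 297 (1132 CPM), lower with an interval of 0.328 to 0.543. It stood at 3810 CPM in Vγ6-led and 596 CPM in Vγ1 family-led barcodes (0.612 to 1.06 against the latter). One barcode held 17 of the 72 Cd163l1 UMIs, and none held more than 15 of the 232 5830411N06Rik UMIs.

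**Figure D3:**
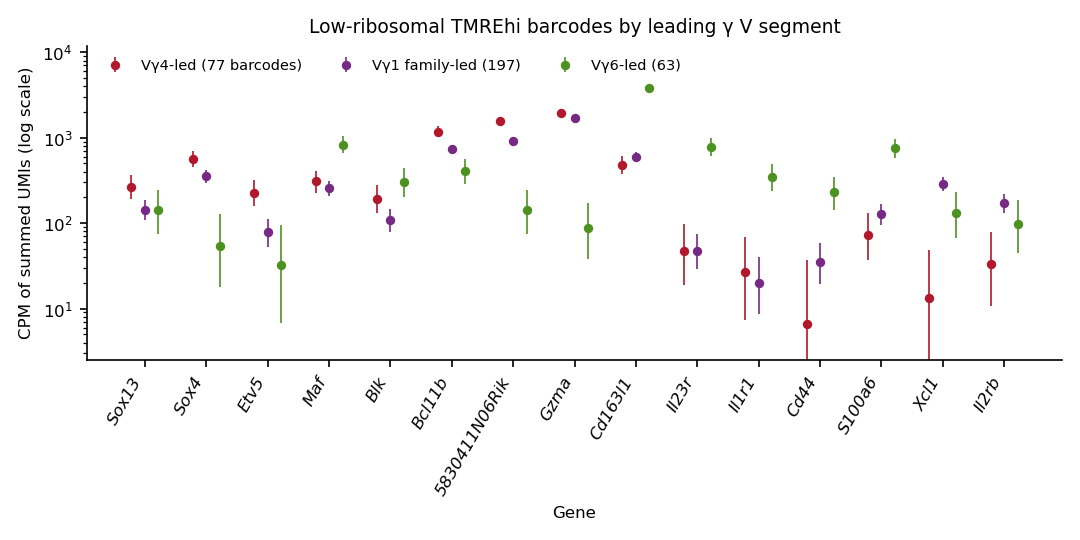
Level of 15 genes in low-ribosomal TMREhi barcodes led by Tcrg-V4, the Vγ1 family or Tcrg-V6, as CPM of summed UMIs on a log scale with exact 95% Poisson intervals. Sox13, Sox4, Etv5, Bcl11b and 5830411N06Rik are highest in Vγ4-led barcodes, Maf, Cd163l1, Il23r and Il1r1 in Vγ6-led barcodes, and Xcl1 is lowest in Vγ4-led barcodes (13.4 CPM).

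Most measured genes of the interferon-γ and cytotoxic list had a lower level in the members. Of 19 genes of 30 that passed the level minimum, 16 had a lower level, 8 of them at least 2-fold, and Gzma, Cd27 and Stat4 had a higher one, with a median log2 of −0.92 (−1.02 against the Vγ6-led barcodes, and −0.20 against the Vγ1 family-led ones, where 6 of 18 were higher). Over all 30 genes the sums were 4116 CPM in the members, 5940 CPM in the others, 3755 CPM in Vγ6-led and 4543 CPM in Vγ1 family-led barcodes. Xcl1, a chemokine of cytotoxic lymphocytes, had 2 UMIs (13.4 CPM) against 210 (384 CPM), lower with an interval of 0.00419 to 0.127, and was lower than in both the Vγ1 family (286.5 CPM, interval 0.00558 to 0.172) and the Vγ6-led barcodes (131 CPM, 0.0111 to 0.458). Il2rb, a receptor chain for interleukin-2 and interleukin-15, had 5 UMIs (33.4 CPM) against 96 (176 CPM), lower with an interval of 0.0604 to 0.460. Ccl5 had 6 UMIs (40.1 CPM) against 113 (207 CPM). Tbx21, the T-bet gene, was at 0 in the members with 5 UMIs in the others. Id2, an inhibitor of E proteins, had 2 UMIs (13.4 CPM) against 52 (95.1 CPM), with an interval of 0.0166 to 0.534. Natural killer and innate lymphoid cell markers moved with this list, at 321 CPM in the low-ribosomal members and 536 CPM in the others. Ncr1 and Il22 were at 0 in those members only, and Eomes was at 0 in both groups. Their part in the result was not tested.

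Gzma, the gene for granzyme A, was found in most TMREhi members. It had 1197 UMIs in 53 of 89 TMREhi members (4279 CPM) and 4873 UMIs among the others (1635 CPM). A single high-ribosomal barcode gave 261 of the 1197, or 21.8%. In the low-ribosomal class it stood at 1944.5 CPM (291 UMIs) against 1540 CPM (842 UMIs; ratio interval 1.10 to 1.45), and in the high-ribosomal class at 6964 against 1656 CPM. Against the low-ribosomal Vγ1 family it was not separated (1719 CPM, 0.983 to 1.30), and against Vγ6-led barcodes (87.3 CPM) it was 11.2- to 52.1-fold higher.

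Genes of immature thymocytes leaned to higher levels. Of 21 measured members of 23, 19 had a higher level and 3 were at least 2-fold higher, with a median log2 of 0.48, and the medians were 1.30 against the Vγ6-led and 0.34 against the Vγ1 family-led barcodes. Bcl11b, a T-lineage commitment factor, had 176 UMIs (1176 CPM) against 344 (629 CPM), higher by 1.55- to 2.25-fold. Ccr9, a thymic homing receptor, had 1437 against 1006 CPM (1.21 to 1.67), Tcf12, an E protein, 829 against 585 CPM (1.14 to 1.75), and Arpp21, a thymocyte transcript, 748 against 382 CPM (1.54 to 2.47). Rag1 stood at 167 against 98.8 CPM (1.01 to 2.77). Without barcodes that held a Rag1 UMI, the median of the list was 0.46 and the αβ thymocyte markers had a median of −0.10, with 67 and 272 barcodes. Sox13 and Etv5 then stood 1.06 and 2.01 log2 units higher.

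Among the genes with the largest ratios by the naming rule, the highest were Cmah, St8sia1, Dyrk2, Cbfa2t3, Klf7, Kat6b, Ip6k1, Sppl3, Phf2 and Gtf3c2, chosen on all TMREhi barcodes. Cmah and St8sia1 act on sialic acid and gangliosides, Dyrk2 is a kinase, and Cbfa2t3, a corepressor, and Klf7 act on transcription. The low-ribosomal members are 77 of the 89 barcodes used for that choice, so their values are a description. In that class Cmah stood at 154 against 51.2 CPM (1.65 to 5.40), Klf7 at 167 against 71.3 CPM (1.36 to 3.97), Dyrk2 at 134 against 54.9 CPM (1.31 to 4.43) and St8sia1 at 180 against 86.0 CPM (1.26 to 3.44). Cbfa2t3 had 21 UMIs (140 CPM) against 23 (42.1 CPM). The lowest by the rule included S100a6, Tmem176b, Ccl5, Xcl1, Capg, Slfn2 and Tmsb4x. S100a6, a calcium-binding protein of effector cells, had 73.5 against 230 CPM in the low-ribosomal class (0.155 to 0.590), and Tmem176b 26.7 against 139 CPM (0.0511 to 0.513). Tmsb4x, an actin-binding peptide, stood at 735 against 960 CPM there and at 1766 against 4864 CPM over all barcodes.

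Maturation and class I genes were mixed. B2m, the class I light chain, was lower, at 361 against 788 CPM (0.338 to 0.609), as was H2-D1, at 401 against 874 CPM. S1pr1, the receptor for thymic exit, was higher, at 200.5 CPM (30 UMIs) against 115 CPM (63 UMIs), with an interval of 1.09 to 2.73. The share of barcodes with an S1pr1 UMI did not separate. After thinning each barcode to 1000 UMIs it was 13.4% in the members (6.33 to 23.97%) and 11.3% in the others (7.67 to 15.97%). The Vγ1 family-led barcodes had 13.1%. Foxo1 was also at a higher level, at 147 against 78.6 CPM (1.06 to 3.19). The maturation and egress list as a whole had 11 of 25 measured members higher, 14 lower and a median of −0.54 against the pooled others. Against the Vγ1 family-led barcodes 14 of 25 were higher and 11 lower, with a median of 0.10. The median against the Vγ6-led barcodes was −0.38. The 53 G2 and M phase genes had 40 of 50 measured members at a higher level (median 0.35), 1 of them 2-fold. Against the Vγ6-led barcodes 44 of 49 were higher (median 0.86). Against the Vγ1 family-led barcodes 34 of 50 were higher and 16 lower (median 0.14, beside 0.03 over all genes). Nuclear genes of oxidative phosphorylation had a median of −0.16, with 31 of 76 higher and 3 at least 2-fold lower, and the 13 mitochondrial mRNAs had a median of −0.03. Over all barcodes the same lists read −0.46 and 0.91, where the class mix differs between the groups as given above.

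Shares of barcodes with a UMI were compared after thinning each barcode to 1000 UMIs, which left 67 of 77 low-ribosomal Vγ4-led and 247 of 297 other barcodes. Sox13 was seen in 23.9% (14.3 to 35.9%) of the former and 11.3% (7.67 to 15.97%) of the latter, and in 1.56% of 64 barcodes with at least 2 Rag1 UMIs and no γ V UMI. Unthinned, the shares were 33.8% and 15.2%, and 1.19% in the Rag1 barcodes, whose median depth was 790.5 UMIs against 1681 in the members and 1589 in the others. Etv5 was seen in 14.9% (7.40 to 25.7%) and 4.86% (2.53 to 8.33%), with 0 of 64 in the Rag1 barcodes, which allows up to 5.60%. Sox4 was seen in 40.3% and 18.6%, and in 46.9% of the Rag1 barcodes, so nothing is read from its share. Gzma was seen in 52.2% (39.7 to 64.6%) and 26.3% (20.9 to 32.3%), above the 18.8% (10.1 to 30.5%) of the Rag1 barcodes in the members, while the other barcodes' interval overlapped it. Unthinned, the Etv5, Sox4 and Gzma shares of the members were 28.6, 54.5 and 54.5%. At least 3 of Sox13, Maf, Sox4, Blk, Etv5 and Gzma, genes picked with their levels known, were found in 41 of 89 TMREhi members (46.1%), 129 of 376 Vγ1 family-led (34.3%) and 13 of 105 Vγ6-led barcodes (12.4%) of both classes, without thinning.

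Levels in the members differed by ribosomal class, while differences by δ partner rested on few barcodes. In the low-ribosomal class, the 20 Trdv2-2 barcodes had Sox13 at 418 CPM (18 UMIs, 247.5 to 660) and the 13 Trav-dv barcodes at 119 CPM (3 UMIs, 24.6 to 348), and these intervals overlapped. Gzma stood at 2877 CPM (124 UMIs, 2393 to 3430) with Trdv2-2, where 1 barcode gave 29.8% of the UMIs, and at 1510 CPM (38 UMIs, 1068 to 2072) with Trav-dv. The 12 Trdv5 barcodes had Gzma at 2091 CPM (39 UMIs, 1487 to 2858.5), an interval that overlapped both. These groups hold 12 to 20 barcodes of 1 library, and 25 more low-ribosomal members had no δ V UMI. The 12 high-ribosomal members had Gzma at 6964 CPM against 1944.5 CPM in the 77 low-ribosomal members. Id3, a target of receptor signalling, was at 615 against 207 CPM. Cd24a, the sort marker, was at 207.5 (27 UMIs) against 66.8 CPM (10 UMIs). One Trdv2-2 barcode held 52.2% of the 23 Cd24a UMIs of all Trdv2-2 members. Thinned to 1000 UMIs, Cd24a was seen in 1 of 12 and 6 of 67. The 5 deepest high-ribosomal members held 60.9% of that group's UMIs. The high-ribosomal members had less Sox13 (92.2 against 267 CPM), Il7r (84.5 against 535 CPM) and Mki67 (261 against 1109 CPM), and no Rag1 UMI.

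Between the sorts, the low-ribosomal Vγ4-led barcodes of TMREhi carried more granzyme A, lineage factor and cell cycle RNA, and those of TMRElo carried more RNA of maturation and thymic exit genes. These values rest on 149652 UMIs in 77 barcodes and 23139 UMIs in 23 barcodes, and 3 UMIs, taken as the floor, are worth 20.05 CPM and 130 CPM. Of 2195 genes averaging 100 CPM or more over both groups, 289 (13.2%) were at least 2-fold higher and 546 (24.9%) at least 2-fold lower in TMREhi, with a median of −0.33, so a 2-fold difference was common here. In the other γ V-led low-ribosomal barcodes 187 of 2067 genes (9.05%) were higher and 251 (12.1%) lower. Over all members 1198 of 2090 genes (57.3%) passed 2-fold, 385 higher (18.4%) and 813 lower (38.9%), with a median of −0.64.

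Gzma had 291 UMIs (1944.5 CPM) in TMREhi and 4 UMIs in 3 barcodes (173 CPM) in TMRElo, higher by 4.35- to 41.6-fold. Maf had 46 UMIs (307 CPM) against 1 UMI (43.2 CPM; ratio interval 1.21 to 287) and Sox13 40 UMIs (267 CPM) against 1 (43.2 CPM; 1.05 to 250). Etv5 had 34 UMIs (227 CPM) and Blk 29 UMIs (194 CPM) with none in TMRElo, at least 1.75-fold and 1.495-fold higher against the floor of 3 UMIs. Sox4 did not separate, with 568 CPM against 302.5 CPM (7 UMIs; 0.873 to 4.81). Summed over all 9 lineage factors, whether or not they passed the level minimum, the list stood at 1938 CPM in TMREhi and 475 CPM in TMRElo. With retained cells only (13 and 4 members) Sox13 turned to a log2 ratio of −1.26 and the lineage factor median to −1.10. Of those 13 TMREhi members 11 were high-ribosomal, while the 4 TMRElo members were low-ribosomal, so the class mix differs there. In the other low-ribosomal γ V-led barcodes the same contrast gave Gzma at 1540 against 54.6 CPM, Maf at 338 against 68.3 CPM and Sox13 at 144.5 against 13.7 CPM, so the direction was not limited to Vγ4-led barcodes.

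Proliferation genes were high in TMREhi. Mki67, a marker of cycling cells, had 166 UMIs in 27 of 77 barcodes (1109 CPM) and none in TMRElo, at least 8.56-fold higher. Top2a, a topoisomerase of dividing cells, had 197 UMIs (1316 CPM) against 3 (130 CPM), and Hmgb2, a chromatin protein of cycling cells, 134 (895 CPM) against 2 (86.4 CPM; ratio interval 2.81 to 86.4). Stmn1, H2afz and Tuba1b, also of dividing cells, had 60, 64 and 54 UMIs with none in TMRElo, at least 3.09-, 3.299- and 2.78-fold higher. Summed over all listed genes, the 53 G2 and M phase genes stood at 10858.5 CPM in TMREhi and 2593 CPM in TMRElo members, and the 40 S phase genes at 5092 and 1037 CPM. In the other γ V-led barcodes the sums were 8745 and 3549.5 CPM, and 4316 and 2334.5 CPM. With retained cells only, which were mostly high-ribosomal in TMREhi, the S phase median turned to −0.33.

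S1pr1 went in the opposite direction. It had 30 UMIs in 16 of 77 TMREhi members (200.5 CPM) and 19 UMIs in 13 of 23 TMRElo members (821 CPM), lower in TMREhi with an interval of 0.133 to 0.459. Thinned to 1000 UMIs it was seen in 9 of 67 (13.4%, 6.33 to 23.97%) and 8 of 11 (72.7%, 39.0 to 94.0%); unthinned the shares were 20.8% and 56.5%, and the Rag1 barcodes had 0 of 64, which allows up to 5.60%. In the other TMRElo γ V-led barcodes it was seen in 9 of 44 (20.5%, 9.80 to 35.3%) after thinning and at 450.5 CPM in the low-ribosomal ones, and the ratio of Vγ4-led to other there had an interval of 0.979 to 3.301. Thinning to 500 UMIs kept all 23 TMRElo members. S1pr1 was then seen in 34.8% of them (16.4 to 57.3%) and 20.8% of the other TMRElo barcodes (12.4 to 31.5%), and these intervals overlap. In the low-ribosomal TMREhi members the share was 6.49% (2.14 to 14.5%). Klf2, the factor that drives S1pr1, had 17 UMIs (114 CPM) against 11 (475 CPM; 0.106 to 0.564), and Foxo1, upstream of Klf2, 22 (147 CPM) against 12 (519 CPM; 0.134 to 0.628). With retained cells only (13 and 4 members, 11 of the 13 high-ribosomal), Klf2 turned to a log2 ratio of 6.59. That value is set by the 1 CPM pseudocount, because those 4 TMRElo members held no Klf2 UMI. No reversal is read from it.

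Gimap3, a GTPase of T cell survival, had 10 UMIs (66.8 CPM) against 14 (605 CPM; 0.0439 to 0.267), Ms4a4b, a T cell membrane protein, 66 (441 CPM) against 38 (1642 CPM; 0.178 to 0.412), and Bcl2, the survival gene, 63 (421 CPM) against 26 (1124 CPM; 0.234 to 0.617). Stat4, which relays interleukin-12, had 28 (187 CPM) against 13 (562 CPM; 0.167 to 0.700). Themis, a receptor signalling protein of thymocytes, had 73 (488 CPM) against 33 (1426 CPM; 0.224 to 0.533). Summed over all 26 maturation and egress genes, the list stood at 5613 CPM in TMREhi and 12014 CPM in TMRElo members, and at 8216.5 and 11290 CPM in the other γ V-led low-ribosomal barcodes. Nuclear retained RNA moved with it: Malat1 stood at 10524 CPM in TMREhi and 32629 CPM in TMRElo members. So did Pecam1, on the stroma and endothelium list and also a lymphocyte gene, at 80.2 against 475 CPM, with Cdh5, Kdr, Col1a2, Col3a1 and Pdgfra at 0 in both. Their part in these differences was not tested.

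**Figure D4:**
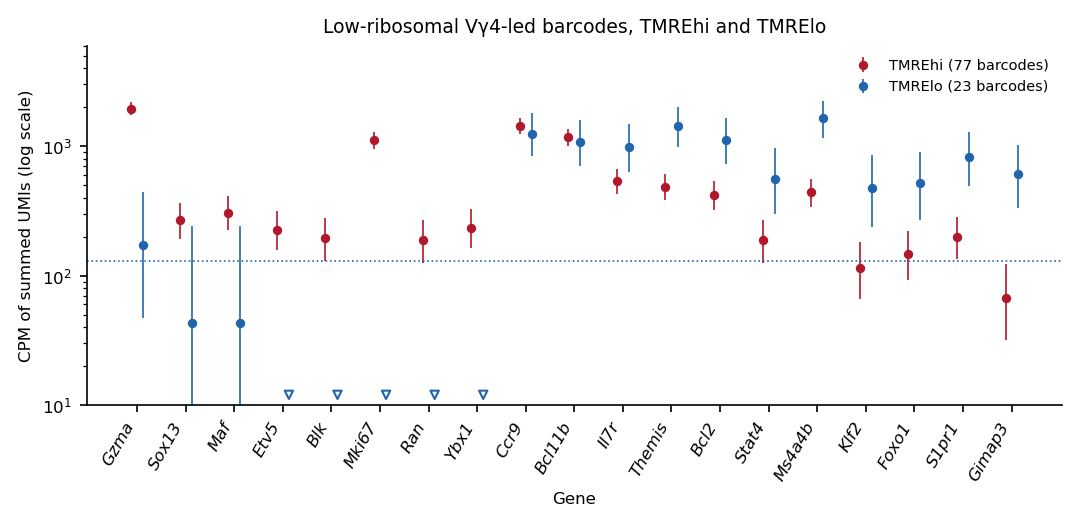
Level of 19 genes in low-ribosomal Vγ4-led barcodes of TMREhi (77 barcodes) and TMRElo (23 barcodes), as CPM on a log scale with exact 95% Poisson intervals; open triangles mark genes at 0 and the dotted line the TMRElo floor of 3 UMIs (130 CPM). Gzma and Mki67 stand above that floor in TMREhi at 1944.5 and 1109 CPM, and S1pr1, Foxo1, Klf2 and Gimap3 are higher in TMRElo.

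Energy genes followed the dye sort in part. Summed over the 76 nuclear oxidative phosphorylation genes present in the matrices (of 79 listed), TMREhi members stood at 9288 CPM and TMRElo members at 4624 CPM. Of the 24 that passed the level minimum, 17 were higher in TMREhi, 11 by at least 2-fold, and 7 lower, 5 by at least 2-fold. Most single genes rested on few UMIs. Cox8a, a subunit of complex IV, had 64 UMIs (428 CPM) against 3 (130 CPM; 1.08 to 16.4). All 13 mitochondrial mRNAs had a higher level (median 0.32), with mt-Atp8 at 15643 against 6310 CPM (2.10 to 2.95), and this direction turns over all members (median −0.28), where the deep high-ribosomal barcodes enter. The 23 glycolysis genes summed to 3214 against 2204 CPM, and Ldha, lactate dehydrogenase A, had 62 UMIs (414 CPM) against 2 (86.4 CPM; 1.27 to 40.5). In the other γ V-led barcodes the oxidative phosphorylation sums were 10104 and 5556 CPM and the glycolysis sums 3590 and 2580 CPM.

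**Figure D5:**
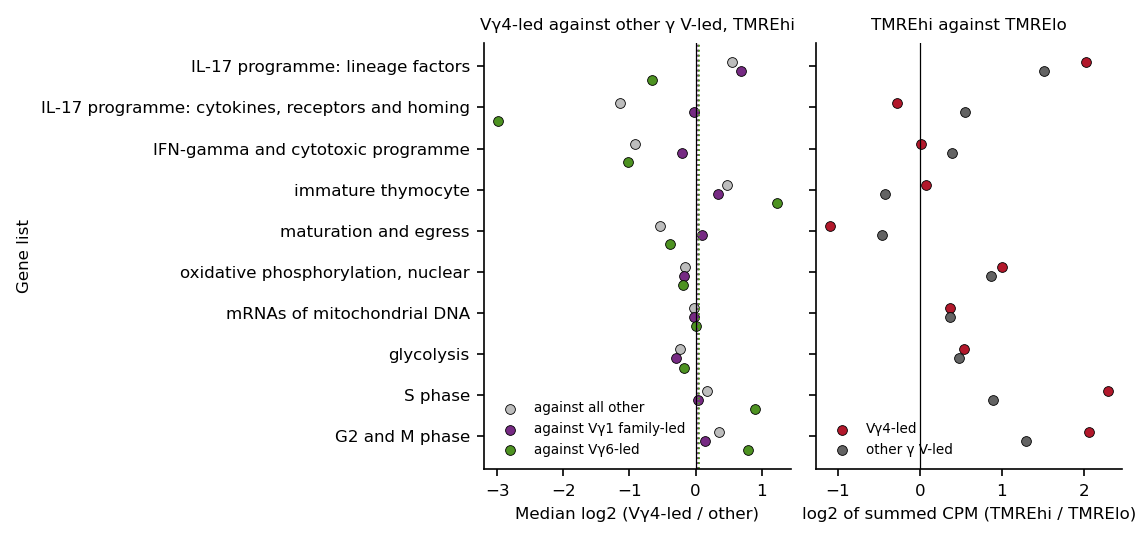
Gene lists in low-ribosomal barcodes. Left, median log2 ratio over the genes that passed the level minimum, with genes at 0 in 1 group set to their bound, for Vγ4-led over other, Vγ1 family-led and Vγ6-led barcodes of TMREhi, with dotted lines at the medians of all genes tested; right, log2 ratio of CPM summed over all genes of a list, TMREhi over TMRElo, in Vγ4-led and other γ V-led barcodes. On the left the lineage factors are above 0 against the other and Vγ1 family-led barcodes (0.55 and 0.69) and below it against the Vγ6-led ones (−0.65).

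The IL-17 programme as a whole had no stable direction between the sorts. Its median was −0.60 over all members and 0.64 in the low-ribosomal class, where the receptor list summed to 3648.5 against 4408 CPM while the lineage factors, as given above, were at a higher level in TMREhi. With retained cells only, which were mostly high-ribosomal in TMREhi, Il7r turned to a log2 ratio of 7.002. The retained TMRElo members held no Il7r UMI, so that value is set by the 1 CPM pseudocount and no reversal is read from it. Cd163l1 was lower in TMREhi members, at 481 against 864 CPM (0.335 to 0.965), with 12 of its 20 TMRElo UMIs in 1 barcode, and 5830411N06Rik was at 1550 against 994 CPM (1.01 to 2.51). The 5 deepest of the 23 TMRElo members held 29.7% of their UMIs.

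Inside TMRElo, 357 of 2212 genes (16.1%) were at least 2-fold higher and 240 (10.8%) at least 2-fold lower in Vγ4-led than in the 68 other low-ribosomal γ V-led barcodes. Trdv2-2 had 11 UMIs in each group (475 against 150 CPM, ratio interval 1.25 to 8.05). Il7r was higher in the members, at 994 against 450.5 CPM (1.24 to 3.87), where TMREhi had it lower than in the pooled others. Its shares did not separate. Thinned to 1000 UMIs it was seen in 3 of 11 members (27.3%, 6.02 to 61.0%). The other TMRElo barcodes of both classes had it in 11 of 44 (25%, 13.2 to 40.3%). In low-ribosomal TMREhi the thinned Il7r shares were 26.9% in the members and 27.4% in the Vγ1 family-led barcodes. Xcl1 had 1 UMI in the members and 39 in the others, lower with an interval of 0.00200 to 0.480, which is the same direction as in TMREhi.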

How the data were processed

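The 2 deposited matrices hold UMI counts per gene and barcode (31053 genes; 1202 TMREhi and 196 TMRElo barcodes), made by the authors with Cell Ranger 3.0 on mm10 per the submitters' processing notes (3.0.2 per the file headers) from a 5′ single-cell kit per the labels' protocols. The libraries held 4350485 and 245048 UMIs and shared 0 barcode sequences. All barcodes were used. Scrublet (scanpy 1.11.5) called 3 TMREhi and 9 TMRElo doublets, a low rate, and of the members it called 0 and 1; they were kept. Counts were summed per group and scaled to CPM, with a pseudocount of 1 CPM in log2 ratios, over genes averaging 20 CPM or more (100 CPM where a TMRElo group entered). With 1 library per sort no p-value was computed. Ratios have exact Poisson (conditional) and shares exact Clopper-Pearson 95% intervals; a level at 0 was bounded at 3 UMIs. The ratio script was tested on simulated data. Shares of barcodes with a UMI were compared after thinning to 1000 UMIs. Alternatives changed the membership rule, the barcodes kept, the comparison group, the scaling, the minimum level and the pseudocount. Scripts used Python 3.11.15, scipy 1.17.1 and biopython 1.88.

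Members and the 22 gene lists (434 genes, 431 in the files) were chosen with earlier results of these data known. Named genes were receptor segments and key genes by name, the 10 highest and 10 lowest ratios per comparison, and up to 4 abundant and 1 extreme gene per list. Not every list member is reported here.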

Additional observations from a re-analysis of the deposited data

Results flagged for a closer look

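The gene lists named here had Vγ4-led over other γ V-led median log2 ratios of opposite sign in the 2 sorts, inside the low-ribosomal class. The IL-17 cytokines, receptors and homing list was at −1.139 in TMREhi (15 genes) and 0.495 in TMRElo (6 genes), and the whole IL-17 programme at −0.8179 and 0.3511. The maturation and egress list was at −0.5404 and 0.3835, and the receptor signal list at −0.3639 and 0.3384. The G2 and M phase list was at 0.3507 and −0.2376. The difference between the sorts was not tested for any of them. Against the low-ribosomal Vγ1 family-led barcodes of TMREhi alone, the medians in the same order were −0.029, 0.044, 0.10, −0.23 and 0.14. Vγ6-led barcodes, which number 105 in TMREhi, have none in TMRElo, so the comparison group differs between the sorts, and fewer genes passed the level minimum in TMRElo, where the medians cover only those. Cd163l1 shows the pattern as a single gene, at 481 CPM in Vγ4-led and 1132 CPM in other barcodes of TMREhi and at 864 and 259 CPM in TMRElo, where 1 of the 23 members held 12 of 20 UMIs.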

How the results depend on the processing

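No paired analysis was possible because each sort has 1 library and no replicate number, and leaving out a replicate was not possible for the same reason. High-ribosomal barcodes alone gave no value between the sorts, since TMRElo had no such member. The 3 alternatives that combine the low-ribosomal class with a Vγ6-led or Vγ1 family-led comparison or with the absence of Rag1 were chosen after seeing the data.

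For the Vγ4-led against other TMREhi comparison, 966 genes passed 2-fold in the main setting. The number was 2519 without barcodes holding a second γ V segment, 2295 without the 5 deepest barcodes of each group, 1701 against Vγ6-led barcodes (2280 in the low-ribosomal class), 389 with a minimum of 50 CPM, 3889 with no minimum and 497 with a pseudocount of 10 CPM. The IL-17 programme median of 0.09 became −0.82 in the low-ribosomal class, −0.69 there without Rag1, −2.22 against Vγ6-led barcodes, −2.20 against low-ribosomal Vγ6-led ones and 0.88 against the Vγ1 family. The lineage factor median turned to −0.55 and −0.65 against Vγ6-led barcodes, without and with the class limit. The mitochondrial mRNA median turned to −0.025, −0.029 and −0.0047, and that of nuclear retained RNA to −0.039, −0.021 and −0.054, in the low-ribosomal class, against the Vγ1 family in it, and in it without Rag1. In the high-ribosomal class S1pr1 turned to −0.045 and Rag1 to −3.74. Rag1 had 0 UMIs in the 12 members there, so its value is set by the pseudocount and no direction is read from it.

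Between the sorts, 1198 genes passed 2-fold; the number was 2434 with retained cells only, 510 with a minimum of 200 CPM and 8119 with none. The IL-17 programme median of −0.60 turned to 0.11 without a second γ V segment, 0.64 in the low-ribosomal class, 0.83 there without Rag1, 0.35 with each barcode weighed alike, 0.49 without mitochondrial and ribosomal UMIs and 2.19 with no minimum, and became −1.64 with retained cells and −1.45 with a minimum of 200 CPM. With retained cells only (13 and 4 barcodes) the lineage factor and S phase medians turned to −1.10 and −0.33. Il7r and Klf2 turned to 7.002 and 6.59, and Sox13 to −1.26. The Il7r and Klf2 values are set by the pseudocount, since the retained TMRElo barcodes held no UMI of either gene. Of these 13 TMREhi barcodes 11 were high-ribosomal and 2 low-ribosomal, and the 4 TMRElo ones were low-ribosomal. With no minimum the IL-17 cytokines, receptors and homing median turned to 0.85 and the receptor signal median to 1.24. The causes were not tested. Of the other values, 1101 kept their direction and moved little, and 221 moved. The Trdv2-2 share of 41.7% ranged from 30.4 to 50%. Depth limits TMRElo most: 3 UMIs are 130 CPM in its 23 members.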
